A study of Homo sapiens and Mus musculus with 33 samples.

Results

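Genes for 9 readers of crotonyl and acetyl lysine were followed through the RNA-seq and ChIP-seq data of colon epithelium and HCT116 cells. The members were chosen by symbol: MLLT1, MLLT3, YEATS2 and YEATS4, which code for YEATS domain proteins, DPF1, DPF2 and DPF3, which code for double PHD finger proteins, and BRD2 and BRD3, which code for proteins with a pair of bromodomains. They make up 9 of the 35805 genes in the HCT116 RNA-seq table and 9 of the 25965 genes in the colon table. Every peak in the gene or within 2.0 kb of it was taken, which gave 18 of 40266 peaks in the HCT116 table of H3K18cr and H3K18ac (histone H3 crotonylated or acetylated at lysine 18), 21 of 30338 H3K18cr peaks in colon and 25 of 27035 H3K4me3 peaks in colon.

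HCT116 cells, an established line from a human colon carcinoma, were treated for 18 h with 5 µM MS275 (entinostat), an inhibitor of class I histone deacetylases, or with its solvent DMSO. Each treatment had 4 RNA-seq libraries, 3 H3K18cr and 3 H3K18ac ChIP-seq libraries and 1 input library, all from this single line. The methods state 2 replicates for H3K18cr where the labels give 3 libraries, and all 3 were used. Colon epithelium of C57BL/6 mice, whose age is not given in the sources used here, gave 3 RNA-seq libraries from separate mice, 2 H3K18cr libraries with 2 inputs, and 3 H3K4me3 libraries with 1 input. For the tissue ChIP, chromatin of 3 colons was pooled and divided among immunoprecipitations, so that libraries may share animals. The study also names 2 mice for the H3K18cr ChIP-seq and calls the 3 H3K4me3 libraries biological replicates, and how these statements fit together is not stated.

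Lysine crotonylation and acetylation of histones are written by acyltransferases and erased by enzymes that include the class I deacetylases. YEATS domains and double PHD fingers hold the flat crotonyl chain in their binding pockets and favour it over acetyl, whereas bromodomains bind mainly acetyl-lysine. The readers work inside larger assemblies: MLLT1 (ENL) and MLLT3 (AF9) in the super elongation and DOT1L complexes, YEATS2 in the ATAC acetyltransferase complex, YEATS4 (GAS41) in the TIP60 and SRCAP complexes, the DPF proteins in BAF chromatin remodellers, and BRD2 and BRD3 at acetylated promoters and enhancers.

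The bases just before the start of 3 reader genes are given here because these genes differed in the HCT116 data described below: MLLT3 and DPF1 were those whose RNA was called higher with MS275 in the fit with the replicate block, and YEATS4 had the largest fall of H3K18cr at its start. The sequences are from RefSeq (GRCh38.p14), run 5′ to 3′ on the strand of the gene and end at the base before the first annotated start in the window. They lie at chr9:20622544-20622749 (minus strand), chr19:38229715-38229945 (minus strand) and chr12:69359493-69359702 (plus strand). Capitals mark matches on either strand to 3 motifs that were searched. The GC box was searched as the letters GGGCGG, the CCAAT box by the letters of its name, and the TATA box as the letters TATAAA.
MLLT3: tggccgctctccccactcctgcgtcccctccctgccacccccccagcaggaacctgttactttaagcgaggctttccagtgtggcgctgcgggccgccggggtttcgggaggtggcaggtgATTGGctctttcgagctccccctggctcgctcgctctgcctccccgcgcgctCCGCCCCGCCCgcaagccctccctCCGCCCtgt
DPF1: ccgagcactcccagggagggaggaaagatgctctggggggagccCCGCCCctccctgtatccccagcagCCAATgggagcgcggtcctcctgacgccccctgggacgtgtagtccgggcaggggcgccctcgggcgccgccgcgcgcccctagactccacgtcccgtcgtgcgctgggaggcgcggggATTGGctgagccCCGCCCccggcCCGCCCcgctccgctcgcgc
YEATS4: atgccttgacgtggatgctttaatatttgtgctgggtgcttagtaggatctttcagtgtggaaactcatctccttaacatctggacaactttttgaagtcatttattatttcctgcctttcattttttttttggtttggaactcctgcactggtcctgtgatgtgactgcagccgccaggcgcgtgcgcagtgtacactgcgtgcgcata
The MLLT3 window held 3 GC boxes, of which the first 2 share 1 base, and 1 CCAAT box. The DPF1 window held 3 GC boxes and 2 CCAAT boxes, and the YEATS4 window held no match to any of the letters searched. Over the 35116 promoter entries of the same source, 42.6% held a GC box, 32.0% a CCAAT box and 10.7% a TATA box in the 250 bases before the start. In those 250 bases MLLT3 had 24 CpG dinucleotides, DPF1 28 and YEATS4 17, and the median entry had 11.0. A match is a description of letters and not of a bound site.

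Total counts ran from 35608533 to 53415604 in the HCT116 RNA-seq libraries and from 8166406 to 10707901 in those of colon, and the reads in peaks from 1374609 to 5730094 in the HCT116 ChIP-seq table. In colon all 8 epithelial markers were above 1 CPM (read counts relative to library size, scaled by TMM), with a summed level of 8299 to 9625, against 26.1 to 44.9 for 8 immune and 31.7 to 46.7 for 10 stromal and neural markers. In HCT116 cells under DMSO 6 of 8 epithelial markers passed 1 CPM, and VIL1 and KRT20 did not, while under MS275 KRT20 passed as well. The summed stromal and neural markers were at 8.37 to 14.3 CPM under DMSO and up to 21.6 CPM under MS275, without overlap, and their part in the results was not tested. The deviations of same-numbered RNA-seq libraries from their group means were positively correlated for all 4 numbers, though 2 pairs of unlike number (2 with 4, in both directions) were as well, so a fit with replicate number as a blocking term is given beside the fit without it where a call differs. Libraries numbered 3 had the lowest scaling factors of the 8 (0.906 under DMSO and 0.914 under MS275), and their part in the results was measured by leaving them out.

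BRD2 was the most abundant reader in both cell sources. In HCT116 cells under DMSO it stood at 47.4 ± 2.55 CPM per kb of exon (SD, n = 4), followed by MLLT1 at 21.4 ± 2.43, DPF2 at 20.5 ± 0.858 and YEATS4 at 16.9 ± 3.19, and these 3 neighbours overlapped between libraries. BRD3 (10.6 ± 1.42) and YEATS2 (8.80 ± 1.71) overlapped as well. DPF1 (2.81 ± 1.25), MLLT3 (1.27 ± 0.326) and DPF3 (0.0240 ± 0.0269) followed, each below all libraries of the gene before it. Under MS275 the order by exon length was the same. With the length of the longest transcript in place of all exons, DPF2 came before MLLT1 under DMSO, with the ranges still overlapping.

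In colon the top of the order was the same gene and the bottom was not. Brd2 stood at 37.3 ± 0.637 CPM per kb (SD, n = 3), above Mllt1 (26.0 ± 2.52) and Yeats4 (25.4 ± 0.798), which overlapped, and above Brd3 (21.8 ± 1.65) and Dpf2 (19.8 ± 0.125). Mllt3 stood at 7.76 ± 0.666, above all libraries of Yeats2 (6.53 ± 0.376), whereas MLLT3 in HCT116 cells lay below all DMSO libraries of YEATS2. Dpf3 was at 0.612 ± 0.250. Dpf1, known as a subunit of neuronal BAF complexes, had 0, 1 and 0 counts in the colon libraries, and a count of 0 allows up to 0.367 CPM in the first library and 0.309 CPM in the third. The 2 tables were normalized separately and come from a human line and mouse tissue, so the levels were not tested against each other, and in bulk tissue fewer cells of a type and less RNA per cell cannot be told apart.

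**Figure D1:**
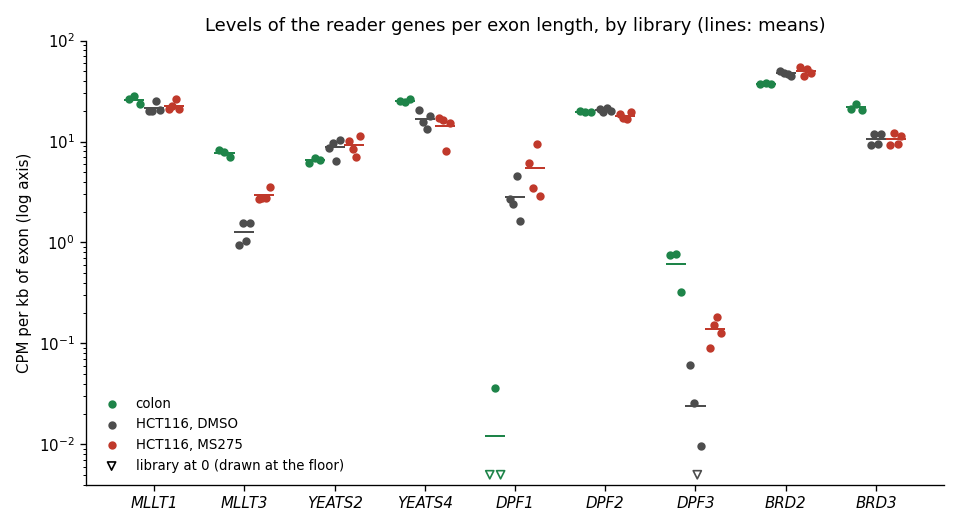
Level of each reader gene in each library, as TMM-scaled CPM per kb of exon on a log axis, for colon (green, 3 libraries), HCT116 under DMSO (grey, 4) and HCT116 under MS275 (red, 4). Short lines are means and open triangles at the foot of the plot are libraries with 0 counts; BRD2 lay highest in every group, and DPF1 in colon and DPF3 in HCT116 cells lay lowest.

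With MS275, the RNA of MLLT3 and DPF1 rose in the fit that compares libraries within their numbers, and that of the other 7 readers did not pass the test. In the fit with the replicate block (edgeR, quasi-likelihood test, Benjamini-Hochberg adjustment over all genes), 2 of the 9 readers were called, against 14.4% of all 14961 genes tested (7.83% higher and 6.55% lower). Without the block, in the fit planned as the main one, no reader (0) was called, against 0.00668% of all genes. That fit called 1 gene, with 987 at an unadjusted p under 0.05, and DESeq2 without the block called 161 genes, MLLT3 among them. All 9 readers passed the filter on low counts, DPF3 through its MS275 libraries.

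MLLT3 codes for AF9, which links acylated histone H3 to the elongation machinery. Its RNA stood at 6.66, 10.9, 7.32 and 11.0 CPM in the 4 DMSO libraries and at 19.1, 19.7, 19.6 and 24.8 CPM in the 4 MS275 libraries. All MS275 libraries were above all DMSO libraries, where 5.46% of all genes had no overlap in either direction and 3.26% were higher without overlap, and the rise within numbered pairs was 1.80-fold to 2.87-fold. The log2 change was 1.25 ± 0.16 (SE) with the block (adjusted p = 0.00055 by edgeR, n = 4 pairs) and 1.22 ± 0.23 without it (adjusted p = 0.26 by edgeR). DESeq2 without the block gave an adjusted p of 0.00052.

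DPF1, named above as a BAF subunit, varied widely between libraries of a treatment. It stood at 8.84, 7.90, 15.1 and 5.36 CPM under DMSO and at 20.4, 11.6, 31.6 and 9.52 CPM under MS275. The groups overlapped, while each MS275 library was above the DMSO library of its number by 1.46-fold to 2.31-fold, as 18.3% of all genes were higher in all 4 pairs, with both libraries numbered 3 the highest of their group. The log2 change was 0.93 ± 0.16 with the block (adjusted p = 0.0031 by edgeR) and 0.99 ± 0.43 without it (adjusted p = 0.71 by edgeR). MLLT3 and DPF1 both stayed called in the fit with the block when each replicate number was left out in turn.

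DPF3, a BAF subunit known from heart and skeletal muscle, was close to absent under DMSO, with 31, 11, 0 and 6 counts or 0.697, 0.291, 0 and 0.109 CPM. Under MS275 it had 44, 71, 68 and 62 counts or 1.02, 1.72, 2.09 and 1.44 CPM. The groups did not overlap, which is given as a description only, since the gene passed the filter through the MS275 libraries. The log2 change of 3.15 ± 1.22 with the block did not pass (adjusted p = 0.10 by edgeR), and DESeq2 with the block gave 3.23 (adjusted p = 0.0067), where it called 10.4% of 24974 genes (5.37% higher and 5.05% lower). The log2 change was 2.52 without the block, and with it ran from 2.24 without replicate 3 to 4.14 without replicate 1. Since the filter favours a difference here, none of these values is read as support for a change. An annotated gene on the opposite strand overlaps DPF3, and no source states if counting took strand into account.

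The remaining YEATS and BET genes differed little between treatments. BRD2 stood at 305, 292, 284 and 268 CPM under DMSO and at 332, 269, 318 and 287 CPM under MS275, with overlapping groups and a log2 change of 0.08 ± 0.06 with the block (adjusted p = 0.47 by edgeR). BRD3 stood at 72.4 ± 9.65 CPM under DMSO and 71.6 ± 9.61 CPM under MS275 (SD, n = 4), MLLT1 at 97.2 ± 11.0 and 102.6 ± 11.8 (higher in 4 of 4 pairs, by 1.02-fold to 1.11-fold, adjusted p = 0.45 with the block by edgeR), and YEATS2 at 60.7 ± 11.8 and 64.0 ± 13.2. BRD2, BRD3, MLLT1 and YEATS2 all overlap annotated antisense genes, as does DPF2.

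YEATS4 and DPF2 had lower means with MS275 and did not pass. YEATS4, a subunit of the complexes that exchange and acetylate H2A.Z nucleosomes, stood at 36.0, 27.3, 23.0 and 31.3 CPM under DMSO and at 30.0, 28.3, 13.9 and 26.6 CPM under MS275, lower in 3 of 4 pairs (log2 change -0.28 ± 0.13 with the block, adjusted p = 0.19 by edgeR). DPF2, the widely expressed DPF subunit of BAF, stood at 93.3, 87.6, 95.6 and 88.5 CPM under DMSO and at 84.1, 75.4, 75.0 and 87.9 CPM under MS275. It was lower in 4 of 4 pairs, as were 18.6% of all genes, with a log2 change of -0.17 ± 0.08 (adjusted p = 0.18 by edgeR).

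**Figure D2:**
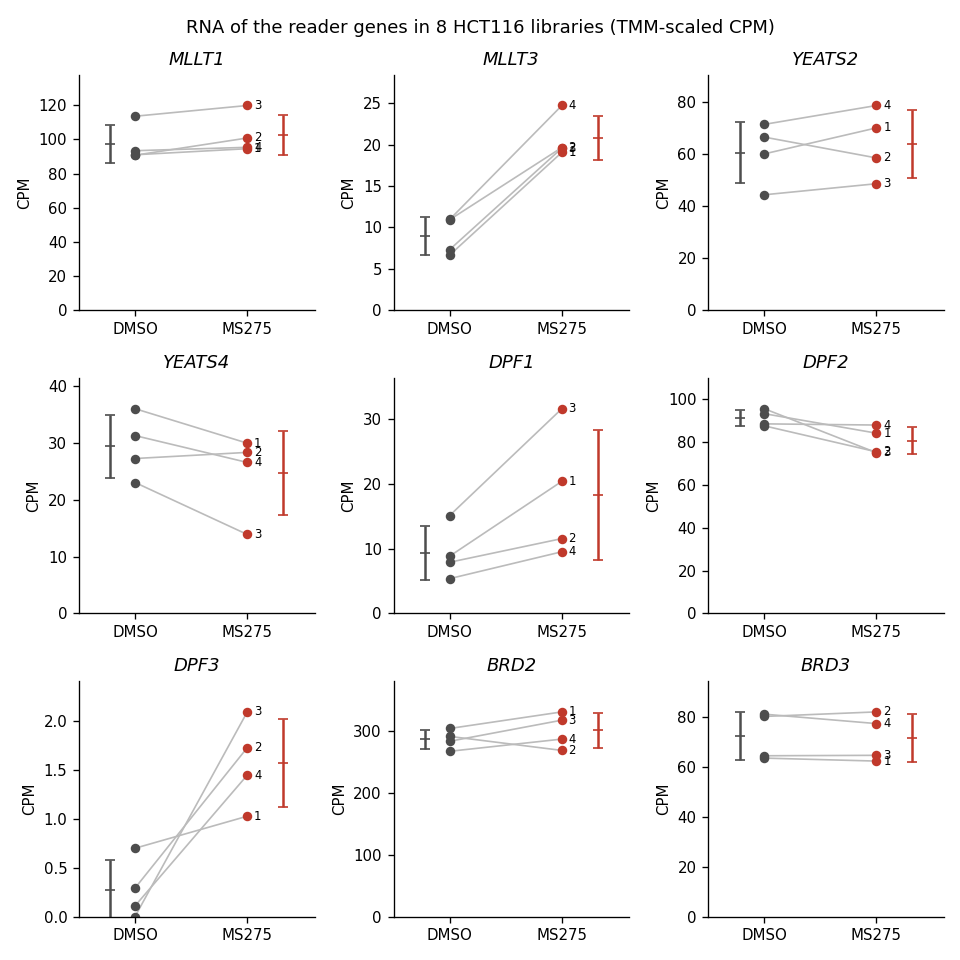
RNA of the 9 reader genes in HCT116 cells as TMM-scaled CPM, with DMSO libraries in grey, MS275 libraries in red, and lines joining libraries of the same replicate number, which stands at the right. Bars beside the points are the mean and SD of 4 libraries; MLLT3 and DPF3 had no overlap between treatments, and each DPF1 library rose within its pair.

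H3K18cr and H3K18ac were measured at 18 peaks of the readers in HCT116 cells. The 8 readers other than DPF3 had a peak within 1.0 kb of the deposited gene start, as had 43.5% of all genes and 85.5% of those with at least 1 CPM, and DPF3 had 3 peaks within its introns. The BRD2 start peak (chr6:32966551-32974950), 8400 bp wide, held among the most reads, with no correction for width. It lay at percentile 97.4 of all start peaks for H3K18cr and 98.7 for H3K18ac under DMSO. It also covers the start of HLA-DMA on the other strand, and the 2 genes cannot be told apart there. The DPF1 start peak was low, at percentile 12.4 for H3K18cr and 9.25 for H3K18ac.

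With MS275, H3K18cr fell at the starts of BRD2, YEATS4, YEATS2 and MLLT1, relative to the scaled total of each library, and did not pass at those of BRD3, DPF2, DPF1 and MLLT3. Such scaled reads do not measure the total amount of a mark in the cells. After MS275 the study reports a rise of histone crotonylation by western blot, and of H3K18cr by ChIP-qPCR at the loci it tested. It describes the drop of reads over gene starts as relative. In the limma fit on the deposited log2 values, 5 of the 18 reader peaks were called, all lower (4 at gene starts), against 23.4% of all 39399 peaks called lower and 0.236% called higher. The deposited scaling enters this: the median log2 change of all peaks was -0.20 for H3K18cr and -0.19 for H3K18ac, and 0.04 and 0.06 after TMM scaling over the peaks (edgeR on recovered reads). After TMM scaling the same 5 reader peaks were called lower for H3K18cr, against 11.5% of all peaks lower and 2.33% higher. For H3K18cr 7 of the 18 reader peaks had no overlap between treatments, 5 of the 8 at starts and 2 of the 10 elsewhere, all lower with MS275, against 33.4% of all peaks (30.3% lower). For H3K18ac 9 of the 18 had none, 6 of the 8 at starts, against 26.6% of all peaks (23.4% lower). Both counts include a peak just past the deposited end of DPF2 (chr11:65353501-65356200), which also covers the start of the gene TIGD3.

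At BRD2 the H3K18cr libraries held 986, 848 and 964 scaled reads under DMSO and 403, 452 and 581 under MS275. All MS275 libraries were below all DMSO libraries, and the input went from 155 to 119. The log2 change was -0.98 ± 0.16 (SE, adjusted p = 5.7e-05 by limma), and -0.73 after TMM scaling (adjusted p = 0.0011 by edgeR). H3K18ac held 963, 1276 and 1755 scaled reads under DMSO and 714, 566 and 583 under MS275, again without overlap, with a log2 change of -1.07 ± 0.24 (adjusted p = 0.000405 by limma, and 0.066 with the block).

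YEATS4 had the largest fall among the start peaks (chr12:69358801-69361200), in the region whose upstream bases are printed above. H3K18cr held 211, 221 and 263 scaled reads under DMSO and 96.7, 76.5 and 126 under MS275, with inputs of 44.3 and 39.6. The groups did not overlap, and the log2 change was -1.24 ± 0.18 (adjusted p = 3.4e-05 by limma) and -0.97 after TMM scaling (adjusted p = 0.0013 by edgeR). H3K18ac held 192, 244 and 390 scaled reads under DMSO and 135, 122 and 105 under MS275, a log2 change of -1.14 ± 0.25 (adjusted p = 0.00041 by limma, and 0.053 with the block).

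YEATS2 and MLLT1 followed. At the YEATS2 start (chr3:183697051-183699600) H3K18cr held 238, 220 and 187 scaled reads under DMSO and 130.5, 119 and 133 under MS275, a log2 change of -0.75 ± 0.17 (adjusted p = 0.0012 by limma) without overlap. At the MLLT1 start (chr19:6278701-6280200) it held 132, 87.4 and 83.5 under DMSO and 64.1, 46.7 and 51.9 under MS275, a log2 change of -0.88 ± 0.21 (adjusted p = 0.0020 by limma), also without overlap. The MLLT1 input went from 26.1 to 18.4. Without replicate 1 neither passed (adjusted p = 0.068 for YEATS2 and 0.055 for MLLT1 by limma), and without replicate 2 YEATS2 did not pass (adjusted p = 0.11), while BRD2 and YEATS4 stayed called without any 1 replicate number. For MLLT1, DESeq2 on the reads gave an adjusted p of 0.062.

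At the MLLT3 start (chr9:20620951-20624550), where RNA rose, neither mark was lower beyond the spread. H3K18cr held 123, 113 and 89.7 scaled reads under DMSO and 125, 127 and 102 under MS275, over inputs of 60.0 and 62.3, and the groups overlapped. The log2 change was 0.13 ± 0.18 (adjusted p = 0.72 by limma) and 0.37 after TMM scaling (adjusted p = 0.12 by edgeR). With TMM scaling and the replicate block together it was 0.38 and called higher (adjusted p = 0.024 by edgeR), in a fit that called 2690 of all 39399 peaks higher. H3K18ac held 89.4, 78.4 and 115 under DMSO and 110, 64.3 and 93.3 under MS275. Its log2 change was -0.09 ± 0.25 on the deposited values and 0.19 after TMM scaling, so that the direction turned with the scaling. The ratio of the MLLT3 to the BRD2 start peak within a library does not depend on the scaling: for H3K18cr it was 9.31 to 13.4 reads per 100 BRD2 reads under DMSO and 17.6 to 31.0 under MS275, a ratio of unequal change that was chosen after its values were seen and has no test.

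DPF1 had 3 peaks that differed from each other. The peak at the deposited start (chr19:38227801-38229900) held 83.0, 58.7 and 63.4 scaled reads of H3K18cr under DMSO and 78.7, 72.2 and 57.5 under MS275 (log2 change 0.03 ± 0.20, adjusted p = 0.96 by limma). A peak over an exon near the end of the gene (chr19:38213251-38214450), named after its values were seen, held 53.0, 49.1 and 54.1 under DMSO and 14.6, 21.2 and 22.4 under MS275, with inputs of 15.6 and 21.2. It had no overlap and the largest fall of the 18, a log2 change of -1.45 ± 0.26 (adjusted p = 0.00013 by limma), to the level of its input. Over the principal start of the current annotation (chr19:38223451-38225250), H3K18ac held 67.9, 67.9 and 104 under DMSO and 55.8, 31.3 and 51.3 under MS275 (log2 change -0.81 ± 0.25, adjusted p = 0.011 by limma), while H3K18cr gave -0.21 ± 0.21 (adjusted p = 0.58). After TMM scaling that H3K18ac fall did not pass (adjusted p = 0.056 by edgeR), nor did it with the block (adjusted p = 0.093 by limma).

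BRD3 and DPF2 lay between these groups. H3K18cr at the BRD3 start was 209 ± 19.4 scaled reads under DMSO and 165 ± 18.6 under MS275 (SD, n = 3), a log2 change of -0.34 ± 0.17 (adjusted p = 0.15 by limma). The groups did not overlap for either mark at BRD3. At the DPF2 start it was 91.9 ± 21.1 and 68.6 ± 3.78, a log2 change of -0.39 ± 0.20 (adjusted p = 0.17 by limma). Without replicate 3 both passed (adjusted p = 0.0021 for BRD3 and 0.0075 for DPF2 by limma). The DPF3 intronic peaks held 28.4 to 68.7 scaled reads of H3K18cr on average under DMSO, and none of the 3 passed for either mark in the deposited scaling. After TMM scaling 1 of them (chr14:72707851-72710250), named after its values were seen, was called higher for H3K18ac (log2 change 0.51, adjusted p = 0.038 by edgeR), against 4.81% of all peaks higher. Its input went from 33.9 to 50.9 scaled reads, a log2 change of 0.57, and its log2 ratio of ChIP to input from 0.80 to 0.45.

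For H3K18ac, on all libraries 5 of the 18 reader peaks were called, all lower, namely the starts of BRD2, YEATS4 and YEATS2 and the DPF1 peaks over the exon and over the principal start, against 16.6% of all 39479 peaks called lower. With the replicate number as a block no reader peak (0) and 895 peaks in all were called, with an adjusted p of 0.12 at YEATS2 by limma. After TMM scaling with the block the reader peaks called were 4 and those in all 7367 (1360 higher and 6007 lower). TMM scaling without the block called 3 reader peaks lower and 1 higher, against 16.8% of all peaks lower and 4.81% higher. Without replicate 2 no reader peak (0) and 1 peak in all was called, without replicate 3 no reader peak (0) and 869 in all, and without replicate 1 the reader peaks called were 9 and those in all 11900. Each of these fits leaves out a library of both treatments. The log2 changes kept their direction: without replicate 2 they were -1.01 at the start of BRD2, -1.20 at YEATS4 and -0.84 at YEATS2, with standard errors of 0.45, 0.44 and 0.44, and without replicate 3 they were -0.80, -0.76 and -0.75. DMSO replicate 3 held the most reads of its group at each start peak except that of DPF1. After TMM scaling the starts of BRD2, YEATS4 and YEATS2 stayed called.

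The change of H3K18cr was compared with that of H3K18ac in 1 model with an interaction of mark and treatment. No reader peak (0) and no peak in all (0) of 40237 was called, a background of 0%, with 736 peaks at an unadjusted p under 0.05. Over the 8 start peaks the difference in log2 change ran from -0.25 at MLLT1 to 0.22 at MLLT3, with standard errors of 0.283 to 0.327, so that differences of this size were not detectable here. RNA and marks side by side, the 4 readers whose H3K18cr fell at the start had RNA log2 changes from -0.28 to 0.09, none called, and MLLT3 and DPF1, whose RNA rose, had H3K18cr changes of 0.13 and 0.03 at the deposited start. The other DPF1 peaks had lower values, with H3K18cr changes of -1.45 at the exon (called) and -0.21 at the principal start (not called), and H3K18ac changes of -0.83 and -0.81, both called in the deposited scaling and neither after TMM scaling (adjusted p = 0.13 and 0.056 by edgeR) nor with the block (adjusted p = 0.081 and 0.093 by limma).

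**Figure D3:**
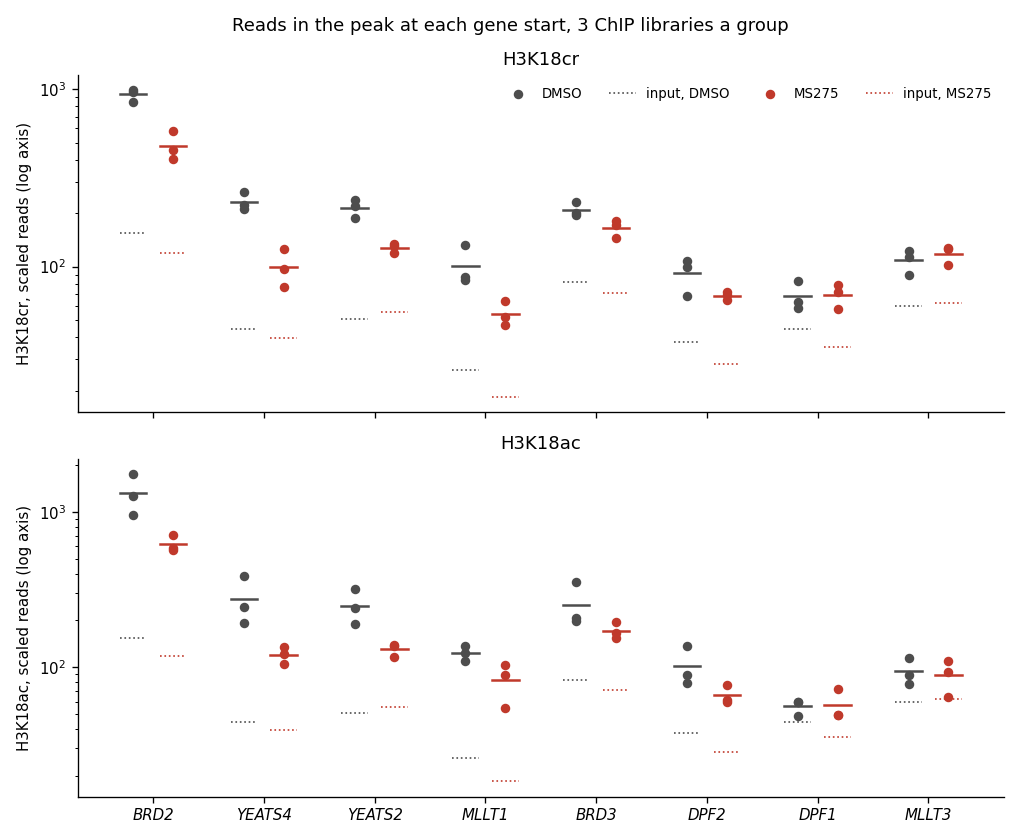
Scaled reads in the start peak of each reader in HCT116 cells on a log axis, H3K18cr above and H3K18ac below, with 3 libraries a treatment (grey DMSO, red MS275), solid lines for means and dotted lines for the input of each treatment. At BRD2, YEATS4, YEATS2, MLLT1 and BRD3 all MS275 points lie below all DMSO points for both marks, at DPF2 for H3K18ac and not H3K18cr, and at DPF1 and MLLT3 they overlap.

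**Figure D4:**
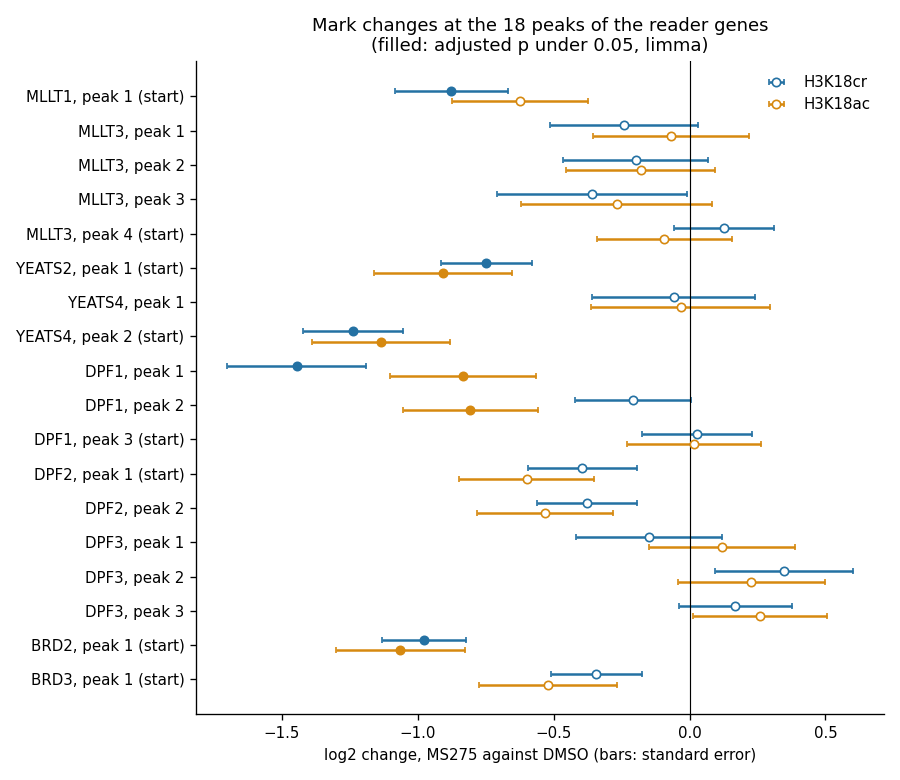
The log2 change with MS275 at all 18 peaks of the readers in the deposited scaling, with standard errors, for H3K18cr (blue) and H3K18ac (orange), where filled points passed an adjusted p under 0.05 by limma. The 5 filled points of each mark all lie below 0, with the DPF1 exon peak (peak 1) farthest for H3K18cr.

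In colon epithelium 7 of the 9 readers had an H3K18cr peak and 8 an H3K4me3 peak at the deposited start, against 43.9% and 55.5% of all genes. Of the 8 readers with at least 1 CPM, 7 had each, against 78.8% and 86.1% of all genes at that level. Brd2 held the most reads of these, as in HCT116 cells, at percentile 99.5 for H3K18cr and 99.96 for H3K4me3. The percentiles rank reads in a whole peak without regard to width, and the Brd2 peaks were the widest, at 5550 and 7650 bp. By log2 ratio to input its H3K4me3 peak (3.168) lay below those of Yeats2 (3.291) and Mllt3 (3.170), while its H3K18cr peak (2.45) was the highest. The Brd2 H3K18cr peak held 684 and 1278 scaled reads over inputs of 151 and 206, and the H3K4me3 peak 915, 1522 and 2199 over an input of 171. The peak covers the start of H2-DMa as well. The second H3K18cr library was the higher at each of the 7 start peaks, and the first H3K4me3 library was the lowest at each of the 8.

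Mllt3 had the most H3K18cr peaks of the readers in colon, 11 of the 21, against 4 in HCT116 cells. Its start peak held 275 and 457 scaled reads over inputs of 104 and 128, at percentile 89.1, where the human start peak lay at percentile 27.5 under DMSO. The other 10 peaks lay along the gene, 9 in introns and 1 over an internal start, and H3K4me3 gave 1 peak in the gene, at the start, with 331, 725 and 885 scaled reads over an input of 71.0. The peak lists differ between the tables, so the numbers of peaks were not tested against each other.

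Dpf1 and Brd3 lacked a start peak of 1 or both marks. Dpf1 had no H3K18cr peak (0) but 7 H3K4me3 peaks, with 1 count of RNA in all, and its start peak (chr7:29303551-29305950) held 108, 160.5 and 172 scaled reads over an input of 44. The log2 ratio to input was 1.72 there and 1.02 to 2.56 over the 7 peaks. Brd3 had no peak (0) of either mark at its deposited start. It had peaks over a cluster of 5 internal annotated starts instead, with 178 and 293 scaled reads of H3K18cr over inputs of 62.0 and 71.7 (chr2:27474001-27476550) and 290, 519 and 706 of H3K4me3 over an input of 52.0.

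The remaining start peaks in colon ranged from percentile 27.4 at Yeats4 to 76.1 at Dpf3 for H3K18cr, and from 30.8 at Dpf1 to 95.6 at Dpf3 for H3K4me3. For H3K18cr the log2 ratio to input was 1.24 at Mllt1, 1.65 at Yeats2, 1.24 at Yeats4, 1.33 at Dpf2 and 1.40 at Dpf3, and at Yeats2 the libraries gave 0.80 and 2.24 over the inputs of their number. For H3K4me3 it ran from 1.72 at Dpf1 to 3.29 at Yeats2. Dpf3, with 26, 35 and 13 counts of RNA, had an H3K4me3 start peak of 301, 586 and 787 scaled reads.

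**Figure D5:**
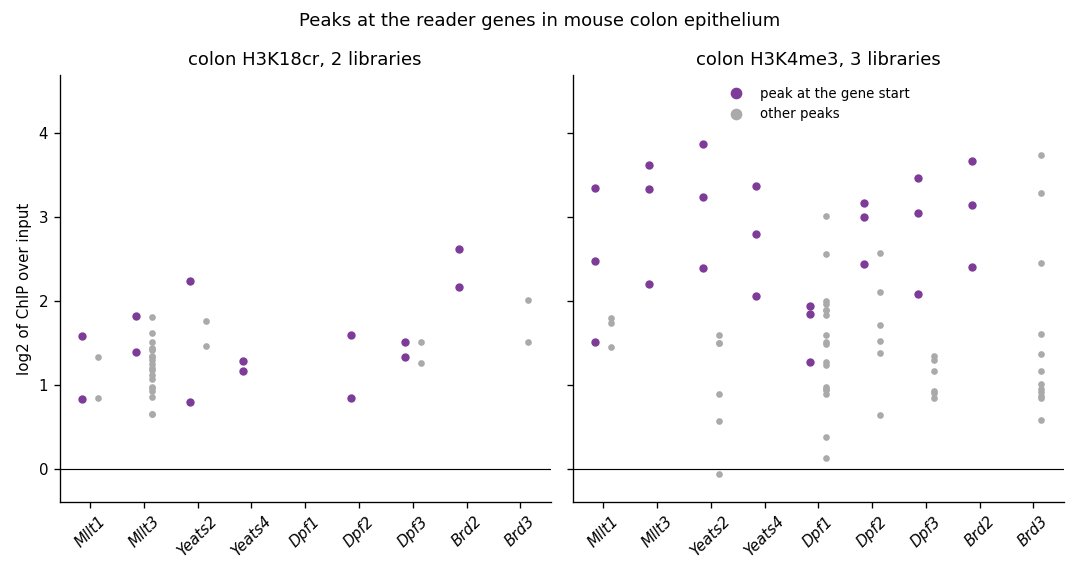
The log2 ratio of ChIP to input at every peak of the readers in mouse colon epithelium, H3K18cr at the left (2 libraries, each over the input of its number) and H3K4me3 at the right (3 libraries over 1 input), with purple for the peak at the deposited gene start and grey for the others. Each point is a library at a peak; Dpf1 has points for H3K4me3 and none for H3K18cr, and Brd3 has grey points alone.

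Some partners of the readers in their complexes were called in the fit with the block, and none (0) was called without it. The counts stand beside the 14.4% of all genes called in the fit with the block, 7.83% higher and 6.55% lower, and no list was tested against that share. Of the 13 tested genes of the elongation complexes that MLLT1 and MLLT3 join, 4 rose and none (0) fell, with a median log2 change of 0.06 against 0.01 over all genes. AFF1, a scaffold of the super elongation complex, went from 32.6 ± 13.7 to 51.9 ± 19.8 CPM (SD, n = 4; log2 change 0.72, adjusted p = 0.0013 by edgeR), the elongation factor ELL2 from 25.0 ± 3.34 to 38.5 ± 7.31 (log2 change 0.62, adjusted p = 0.0032 by edgeR) and the scaffold AFF4 from 53.6 ± 20.8 to 65.3 ± 24.5 (log2 change 0.30, adjusted p = 0.044 by edgeR), each higher in 4 of 4 pairs, as were 18.3% of all genes. Of 11 tested ATAC genes 3 fell and none (0) rose, with a median of -0.31. These were the acetyltransferase KAT2A (log2 change -0.66, adjusted p = 0.0011 by edgeR), POLE3 (-0.36, adjusted p = 0.0063) and WDR5 (-0.33, adjusted p = 0.042).

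Of 19 tested genes of the TIP60 and SRCAP complexes, which YEATS4 joins, 2 fell and none (0) rose, with a median of -0.08. EPC1 went from 19.0 ± 2.90 to 10.1 ± 2.35 CPM (log2 change -0.91, adjusted p = 0.0061 by edgeR) and VPS72 from 51.9 ± 1.85 to 37.2 ± 5.02 (log2 change -0.48, adjusted p = 0.0071 by edgeR). Of 22 tested BAF genes 2 fell, SMARCB1 (log2 change -0.50, adjusted p = 0.00089 by edgeR) and BCL7C (-0.40, adjusted p = 0.029), and none (0) rose, with a median of -0.14. Of 36 other genes for proteins with an acyl-lysine reader module 2 rose and 5 fell, with a median of -0.09. SP110, a nuclear body protein, rose (log2 change 0.83, adjusted p = 0.042 by edgeR), and ZMYND11 fell (-0.64, adjusted p = 0.0025) as did KAT2A, which is in both lists.

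Over the 8 HCT116 libraries, the gene most like each reader was taken as the one with the smallest root mean square difference of centred log2 CPM among 12094 genes (12095 for DPF3) of at least 100 mean counts. For MLLT3 this was LMCD1, with a difference of 0.164 against a median of 0.749 over all these genes, and for DPF1 it was PALM3 (0.166 against 0.851). For BRD2 it was GRB2 (0.0518), for BRD3 GSKIP (0.0667), for MLLT1 TOP1 (0.0449), for DPF2 MIEF1 (0.0308), for YEATS2 DDI2 (0.0474) and for YEATS4 NUP54 (0.0775). DPF3 had no near neighbour, with RGS9 closest at 0.831. The libraries share treatment, number and depth, and the likeness describes these libraries only.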

How the data were processed

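RNA-seq, H3K18cr, H3K18ac and H3K4me3 ChIP-seq libraries (33 in all, in 5 tables) were grouped by their labels. The RNA tables hold raw read counts per gene as the authors deposited them. Reads were trimmed with Trim Galore 0.4.2, and the tools named for mapping differ between the methods (HiSat2) and the submitters' processing notes (TopHat2 2.0.12). Use of strand in counting is not stated. For ChIP-seq the authors used Bowtie2 (builds GRCm38 for mouse and GRCh38 for human), discarded duplicate reads and called 1 list of MACS peaks per table in SEQMONK. The deposited colon tables hold a signal, read counts multiplied by 1 factor per library, and the deposited HCT116 table holds log2 of such scaled reads, with 0.9 read in place of 0. Duplicate removal limits the height of strong peaks, and a scaling by 1 factor per library cannot show a change in the total amount of a mark. A shift common to the peaks can show in it. The median log2 change of all H3K18cr peaks was -0.20 in the deposited scaling and 0.04 after TMM scaling over the peaks.

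Genes were tested with edgeR 4.0.16 (TMM, filterByExpr, quasi-likelihood), peaks with at least 10 reads in at least 3 libraries with limma 3.58.1 (trend), in R 4.3.3, with Benjamini-Hochberg adjustment over the whole table and a call at an adjusted p under 0.05. DESeq2 1.42.0, TMM over recovered reads, no filter and leaving out each replicate number were alternatives. Added after the data were seen were leaving out replicates within the block, DESeq2 with the block, the block with TMM over peaks, and the longest transcript as gene length. Deviations of same-numbered RNA libraries correlated across genes at 0.227, 0.153, 0.435 and 0.459, all above 0.1, so the numbers were taken as pairs, although DMSO 2 with MS275 4 (0.238) and DMSO 4 with MS275 2 (0.217) exceeded the pair of number 2. For the ChIP-seq they did not all exceed 0.1. The study compared the HCT116 ChIP-seq libraries over gene starts with a paired test, whereas the fit here has no block, so values with the block are given beside the H3K18ac calls, which it changed. No 2 RNA libraries were identical (0 of 28 pairs in HCT116). Exon lengths and starts were those of GENCODE 44 and M21. A start peak is the highest peak within 1.0 kb of the deposited gene start. ChIP to input ratios carry a pseudocount of 1 read. Limits from a count of 0 (3 counts) cover counting error only. The methods name biological replicates for HCT116 ChIP beside the qPCR, and do not say which sequenced libraries these are, so ChIP-seq p-values may measure only the spread between these libraries.

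All 9 readers were named, with at most 3 called genes of largest change per partner list and the 1 most like gene per reader. The members and lists were chosen with earlier results of these data known. The fits were tested on simulated data with 200 genes of at least 100 mean counts changed 2-fold among 14961. On data with a simulated replicate effect, edgeR with the block recovered 200 of 200 for the HCT116 RNA comparison (4.76% of its calls false). On data without such an effect, edgeR without the block recovered 199 (4.33% false) and DESeq2 without it 198 (9.17% false). The fits without the block were not tried on data with a replicate effect, so these values do not rank the fits. Plots were made with matplotlib 3.10.9.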

Additional observations from a re-analysis of the deposited data

Results flagged for a closer look

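In the 18 groups of 4 RNA-seq libraries (9 readers, 2 treatments), 2 held a library that stood apart from the others of its group, where chance gives about 1 in 20 groups. For MLLT1, DMSO replicate 3 lay at 113.6 CPM against 90.7 to 93.4 in the others, a gap of 0.884 of the range of the group. For MLLT3, MS275 replicate 4 lay at 24.8 CPM against 19.1 to 19.7, a gap of 0.898 of the range. MLLT3 stayed called in the fit with the block without replicate 4.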

How the results depend on the processing

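Without the replicate block, the RNA comparison called 1 gene of all and no reader (0). The replicate block gave 2151 and 2, DESeq2 161 and 1, no filter on low counts 13 genes of all, and leaving out a replicate 0 to 8. With the replicate block, leaving out replicate 1, 2 or 4 lowered the count to 968, 994 and 1037, leaving out replicate 3 gave 2584, and 2 readers were called each time. BRD3 RNA, at 0.00 on the log2 scale, ran from -0.037 to 0.016 without a replicate and reached 0.0054 and 0.013 in the replicate block without replicate 1 and 4.

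H3K18cr calls numbered 9321, with 5468 after TMM scaling, 3384 by DESeq2, 10667 in the replicate block and 2072 to 15131 without a replicate. The reader peaks among them were 5, with 3 by DESeq2, 5 in the replicate block and 3 to 9 without a replicate. The replicate block with TMM called 10087 H3K18cr peaks, 2690 of them higher, and 7 reader peaks. H3K18ac calls numbered 6652, with 895 in the replicate block, 7367 in the replicate block with TMM and 1 to 11900 without a replicate, and the reader peaks 5, with 0 in the replicate block, 4 in the replicate block with TMM, 3 by DESeq2 and 0 to 9 without a replicate. The start of MLLT3 in H3K18ac changed direction to 0.19 after TMM scaling, 0.18 by DESeq2 and 0.18 in the replicate block with TMM, and ran from -0.29 to 0.01 (0.0088) without a replicate. Without a replicate, H3K18cr at the DPF1 start lay between -0.11 and 0.11, and H3K18ac there between -0.11 and 0.16. In the replicate block with TMM, H3K18cr at the MLLT3 start passed (0.38, adjusted p = 0.024 by edgeR). Of the HCT116 reader peaks, 8 of 18 had a ChIP to input ratio of at least 2. The causes were not tested. The comparison of the marks gave no call (0) in the replicate block and without any replicate, with 522 to 4337 peaks at an unadjusted p under 0.05. There were 3 libraries a group and 1 input a treatment, and how small a change could be detected at the weaker peaks was not tested.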
